A study of Mus musculus with 6 samples.

Results

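The collagen genes of the mouse were followed in the RNA-Seq of adult somatosensory cortex from *Mef2c* cKO mice and control littermates. The members were every row whose symbol has the form Col, a number, a, a number, which gave 43 of the 21667 named gene rows. *Col6a3* was not among these rows, so the type VI genes and all sums here are without it. They were grouped by the structure of their proteins into fibrillar collagens (11 genes), network collagens (9 genes, 6 of them of the basement membrane) and other collagens (23 genes). Those 23 comprised 6 genes of beaded filaments and anchoring fibrils, 9 FACIT genes (fibril-associated collagens with interrupted triple helices), 4 transmembrane collagens, and a remainder of 4 genes that holds the multiplexins and a pair of less studied collagens.

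Collagens are secreted or membrane-bound proteins built from alpha chains that wind into a triple helix, with each gene coding for 1 chain. Fibrillar collagens form the load-bearing fibrils of connective tissue, network collagens form sheets such as the basement membrane, and FACIT collagens sit on the surface of fibrils. Brain parenchyma is poor in fibrils, and its collagen is best known from the basement membrane of blood vessels and from the meninges, although neurons express several of the minor collagens.

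The controls were Cre-negative male mice with both *Mef2c* alleles floxed (Mef2cfl/fl, n = 3), and the *Mef2c* cKO mice were males with the same alleles and Emx1-Cre (n = 3). Emx1-Cre acts in the Emx1 lineage of the forebrain from embryonic stages, which includes the cortical excitatory neurons and part of the glia, while cortical interneurons arise outside it. All 6 animals were on a mixed SVeV-129 and C57BL/6J background. In both genotypes replicate 1 was 14 weeks old and replicates 2 and 3 were 12 weeks old. The labels name each library by genotype and number, and each was treated here as 1 mouse.

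The libraries held between 19326365 reads (*Mef2c* cKO replicate 2) and 54128334 reads (*Mef2c* cKO replicate 3) assigned to genes. Levels are given as CPM, the counts with each library scaled to the same total of assigned reads, from the whole read counts recovered out of the deposited RPKM values, and their precision rests on 3 mice per genotype. *Mef2c* itself, the deleted gene, was counted at 801, 772 and 801 CPM in control replicates 1 to 3 and at 1232, 1277 and 1469 CPM in the cKO replicates. The cKO mice were above the controls (log2 fold change 0.74 ± 0.07 SE, limma adjusted p = 0.000175). A count over the whole gene includes the exons that were not deleted, so this value does not check the deletion, and the genotypes rest on the labels.

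Of the 43 collagen genes, 40 were tested, and 15 of them (37.5%) differed between genotypes, 8 higher and 7 lower in *Mef2c* cKO. Of all 14638 genes tested, 13.7% differed by the same rule, 5.88% higher and 7.79% lower. A gene was counted as different when its Benjamini-Hochberg adjusted p from limma over all genes tested was below 0.05 and its absolute log2 fold change was above 0.3. The tested collagens had a median absolute log2 fold change of 0.37, against 0.13 over all genes tested, and a median signed log2 fold change of 0.08, against 0.01. Of the 40 tested collagens, genotypes did not overlap in 11 that were higher and 8 that were lower in cKO. Over all genes tested the shares were 16.3% and 17.5%, and the lower share of the collagens was near the latter. These shares describe the family and were not tested as a set. In whole tissue a lower level from fewer cells of a type and from less RNA per cell cannot be told apart.

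**Figure D1:**
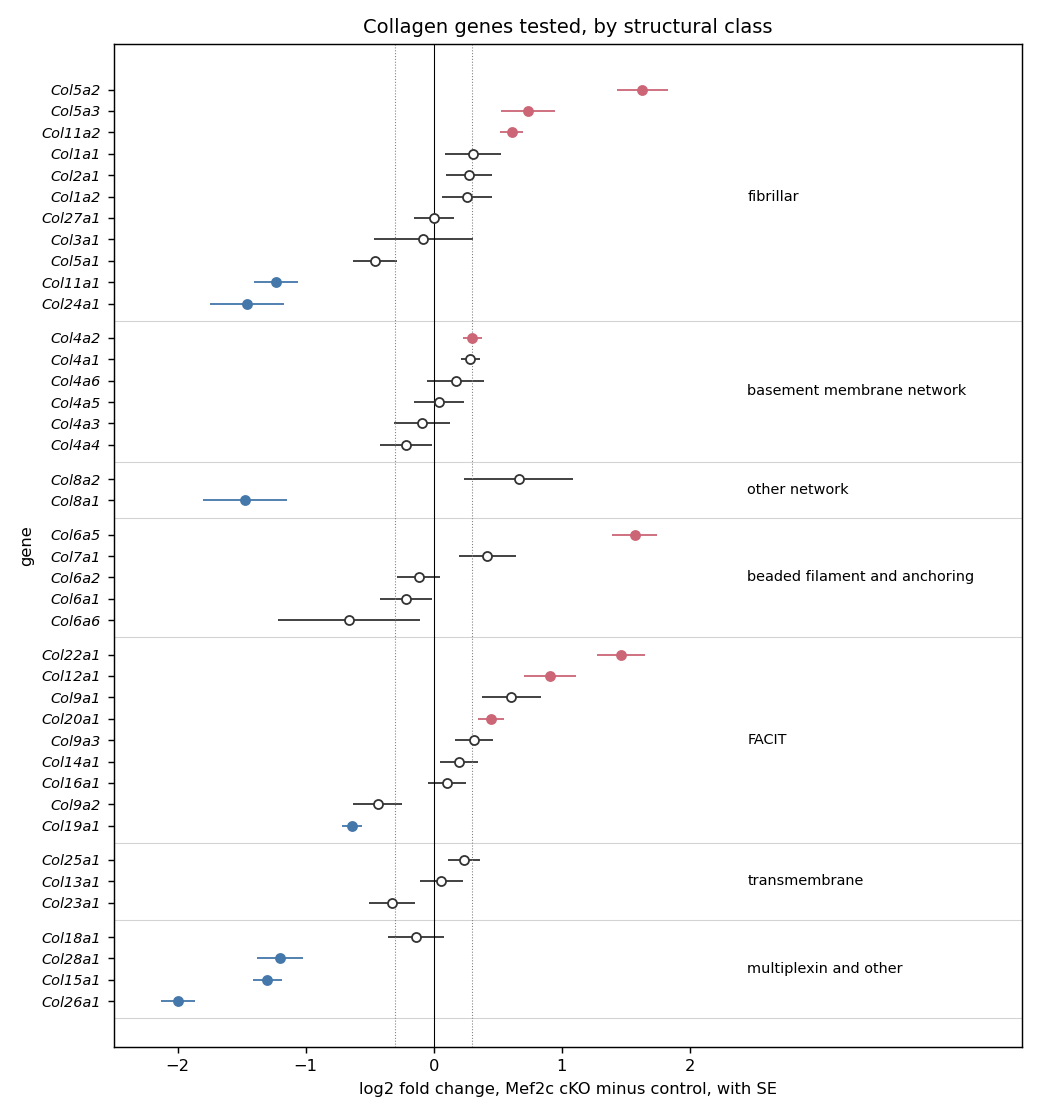
Log2 fold change (x axis, *Mef2c* cKO minus control, bars are standard errors of the limma fit) of the 40 tested collagen genes (y axis), grouped by structural class. Filled points are the 15 genes that passed the test, red higher and blue lower in cKO, open points did not pass, and the dotted lines mark the log2 fold change cut-off of 0.3; both directions occur among the fibrillar and FACIT genes.

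*Col26a1* had the largest fall of the family and *Col5a2* the largest rise. *Col26a1*, also named *Emid2*, codes for a short collagen with an EMI domain and lies at chr5:137217629-137359079 on the minus strand (coordinates here are from the GENCODE annotation of NCBIM37, the assembly also called mm9). It was at 22.8, 33.3 and 29.0 CPM in controls and at 7.31, 6.68 and 6.86 CPM in cKO. Every cKO mouse was below every control, and the 3 cKO mice were closer to each other than the 3 controls were. The mean was 4.08-fold lower (log2 fold change -1.998 ± 0.13 SE, limma adjusted p = 1.69e-05). On the length-corrected scale, CPM per kilobase of merged exon, *Col26a1* ranked 5 of the 43 collagens in controls (4.85) and 16 in cKO (1.19).

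The window of 250 bases before the annotated start of *Col26a1* (chr5:137359080-137359329, minus strand) is shown because the gene changed most. It held none of the letters searched, namely the MEF2 consensus, the CCAAT box, the GC box (GGGCGG) and the TATA box as TATAAA, each on either strand, and is therefore printed without capitals.
Col26a1: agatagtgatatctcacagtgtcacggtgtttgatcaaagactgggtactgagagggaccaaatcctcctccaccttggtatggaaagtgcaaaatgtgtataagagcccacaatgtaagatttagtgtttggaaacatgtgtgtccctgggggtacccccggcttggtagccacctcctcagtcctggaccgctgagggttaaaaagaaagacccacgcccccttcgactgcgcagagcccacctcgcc

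The MEF2 consensus, which MEF2C and its relatives bind, was matched in this window in 1 of the 43 collagen genes (2.33%) and in 2.94% of 22380 protein-coding genes of the annotation. The gene that held it was *Col13a1*, a transmembrane collagen, whose window (chr10:61441857-61442106, minus strand) is shown with the match in capitals; the letters TATAAA lie within the same match.
Col13a1: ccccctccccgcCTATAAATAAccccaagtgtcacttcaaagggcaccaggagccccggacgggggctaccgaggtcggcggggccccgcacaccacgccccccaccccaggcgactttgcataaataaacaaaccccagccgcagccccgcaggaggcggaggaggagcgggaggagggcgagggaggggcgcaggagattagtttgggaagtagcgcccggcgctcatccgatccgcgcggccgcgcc
*Col13a1* was at 1.44, 1.54 and 1.34 CPM in controls and at 1.65, 1.502 and 1.37 CPM in cKO, with overlapping genotypes (log2 fold change 0.06 ± 0.17 SE, limma adjusted p = 0.86). Of the other letters, CCAAT lay in 39.5% of collagen windows and 35.0% of all windows, GGGCGG in 51.2% and 39.6%, and TATAAA in 11.6% and 12.3%. A match of letters in a window describes the sequence and says nothing of binding.

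Among the remaining collagens, the class of *Col26a1*, 3 of 4 genes fell and none rose. *Col15a1* (chr4:47221033-47326039, plus strand) codes for a multiplexin, a basement membrane proteoglycan related to the source of endostatin. Its levels were 8.94, 10.03 and 9.78 CPM in controls and 3.70, 3.73 and 4.07 CPM in cKO. The genotypes were well apart, with little spread in either (log2 fold change -1.30 ± 0.11 SE, limma adjusted p = 6.98e-05). *Col28a1* (chr6:7947808-8142617, minus strand), known from basement membranes around Schwann cells of peripheral nerve, was at 2.38, 2.47 and 3.11 CPM in controls. In cKO it was at 1.07, 1.24 and 0.98 CPM, again below every control (log2 fold change -1.20 ± 0.18 SE, limma adjusted p = 0.0017). *Col18a1*, the other multiplexin and the gene that encodes endostatin, did not pass (2.62 to 3.90 CPM in controls, 2.17 to 3.72 in cKO, limma adjusted p = 0.731).

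**Figure D2:**
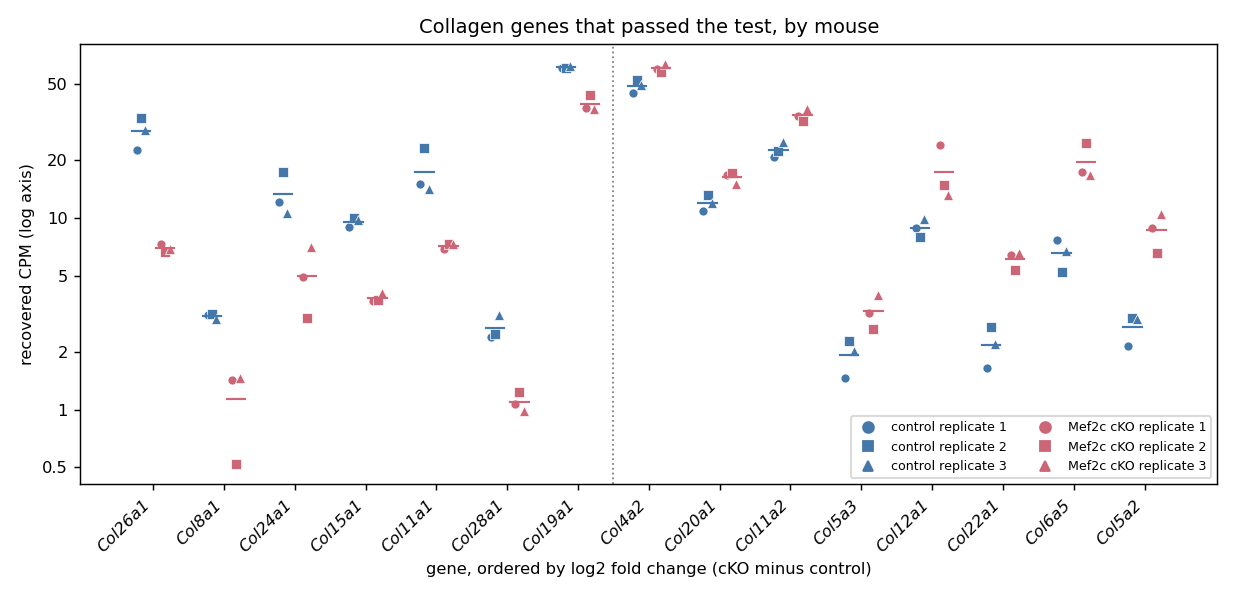
Recovered CPM (y axis, log axis) of the 15 collagen genes that passed the test in each of the 6 mice, ordered along the x axis by log2 fold change, with the 7 lower genes left of the dotted line. Points are mice (blue control, red *Mef2c* cKO, shape gives the replicate) and short lines are genotype means; in none of the 15 genes do the genotypes overlap.

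Among the 11 fibrillar genes, 2 fell and 3 rose. *Col24a1* (chr3:144955436-145214975, plus strand), a minor fibrillar chain, was at 12.2, 17.5 and 10.6 CPM in controls and at 4.92, 3.003 and 7.08 CPM in cKO. Control replicate 2 was the highest and cKO replicate 2 the lowest of the 6 mice, and the genotypes did not overlap (log2 fold change -1.46 ± 0.29 SE, limma adjusted p = 0.00765). *Col11a1* (chr3:113733458-113923636, plus strand), a chain of the fibril-nucleating type XI collagen of cartilage, was at 15.1, 23.2 and 14.2 CPM in controls and at 6.88, 7.30 and 7.36 CPM in cKO. As for *Col26a1*, the controls spread widely while the cKO mice lay close together (log2 fold change -1.24 ± 0.17 SE, limma adjusted p = 0.00106).

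*Col11a2* (chr17:34176382-34203630, plus strand), a second chain of type XI collagen, moved the other way. It was at 20.9, 22.3 and 24.8 CPM in controls and at 34.2, 32.3 and 37.3 CPM in cKO, 1.53-fold higher on the means (log2 fold change 0.61 ± 0.09 SE, limma adjusted p = 0.00153). *Col11a2* was above *Col11a1* per kilobase in both genotypes, at 3.32 against 1.81 in controls and 5.06 against 0.743 in cKO. By that level, *Col11a1* went from rank 13 to 21 among the 43 collagens and *Col11a2* from 7 to 5.

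Chains of type V collagen, which sits inside type I fibrils and limits their width, also differed from each other. *Col5a2* (chr1:45431166-45560127, minus strand) was at 2.15, 3.02 and 2.97 CPM in controls and at 8.86, 6.58 and 10.6 CPM in cKO. All 3 cKO mice were above the controls, and the mean was 3.20-fold higher (log2 fold change 1.63 ± 0.20 SE, limma adjusted p = 0.00052). *Col5a3* (chr9:20574494-20619511, minus strand) was at 1.47, 2.27 and 2.02 CPM in controls and at 3.18, 2.64 and 3.96 CPM in cKO. The genotypes were apart by a small gap (log2 fold change 0.74 ± 0.21 SE, limma adjusted p = 0.0416), and the call was lost when any 1 of 4 mice was left out (control replicate 1 or 3, cKO replicate 1 or 3; log2 fold change 0.57 to 0.78, limma adjusted p 0.0818 to 0.131).

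*Col5a1*, the type V chain with the highest level, did not pass. It was at 33.8, 43.1 and 38.8 CPM in controls and at 30.9, 20.6 and 33.9 CPM in cKO, and cKO replicate 3 lay just above control replicate 1 (log2 fold change -0.46 ± 0.17 SE, limma adjusted p = 0.107). Without cKO replicate 3 it passed, at -0.60 on the log2 scale (limma adjusted p = 0.0499), and without cKO replicate 2 it was at -0.25 (limma adjusted p = 0.205). The remaining fibrillar genes, *Col1a1*, *Col1a2*, *Col2a1*, *Col3a1* and *Col27a1*, had overlapping genotypes and log2 fold changes between -0.08 (*Col3a1*) and 0.31 (*Col1a1*). *Col3a1* and *Col5a2* lie tail to tail with 24614 bases between their ends, and of this pair *Col5a2* alone passed.

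*Mef2c* cKO replicate 2, which also had the fewest reads, was the lowest of the 6 mice in 15 of the 40 tested collagens, and in 12 of the 25 that did not pass. *Col1a1* was at 9.17 and 8.54 CPM in cKO replicates 1 and 3 but at 4.87 CPM in replicate 2, below all controls (5.41 to 6.21 CPM). *Col1a2* followed the same order, at 20.3 and 17.6 against 11.1 CPM, with controls between 12.2 and 14.5 CPM. These genes code for the chains of type I collagen, the main fibrillar collagen of connective tissue. Without cKO replicate 2, 17 collagens passed in place of 15: *Col1a1*, *Col1a2* and *Col9a1* were gained and *Col20a1* was lost.

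The summed level of 15 markers of fibroblasts and meningeal cells was also lower in cKO replicate 2 than in the other cKO mice. It was at 139 to 154 CPM in controls, 221 and 222 CPM in cKO replicates 1 and 3, and 141 CPM in cKO replicate 2. That last sum lay within the control range, with *Pdgfra* alone at 54.8 CPM, but its members differed. In cKO replicate 2 *Aldh1a2*, *Fbln1*, *Foxc1*, *Foxd1*, *Igf2*, *Islr*, *Ogn* and *Slc22a6* were below every control. *Dcn* and *Slc13a3* were above every control, and *Crabp2*, *Lum*, *Mgp*, *Pdgfra* and *Slc6a13* lay among the controls. Of those 15 markers, 2 passed, both higher in cKO, beside 13.7% of all genes tested, and none was at 0 in all mice. One was *Dcn*, the proteoglycan decorin that binds collagen fibrils, at 6.15 to 7.88 CPM in controls and 50.9, 12.7 and 33.5 CPM in the cKO replicates. The summed level of 9 striatal markers also separated the cKO mice, at 195 to 273 CPM in controls, 433 and 391 CPM in cKO replicates 1 and 3, and 215 CPM in cKO replicate 2. Summed endothelial markers were at 437 to 472 CPM in controls and 418 to 447 CPM in cKO, and 0 of 15 passed. Summed markers of pericytes and vascular smooth muscle were at 199 to 206 CPM and 183 to 220 CPM, and 0 of the 12 tested passed.

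The sums of other marker lists overlapped between genotypes in some and not in others. Their counts of genes that passed stand beside 13.7% of all genes tested. Pyramidal neuron markers summed to 6134 to 7295 CPM in controls and 6207 to 7235 CPM in cKO, but 9 of the 14 passed, 4 higher and 5 lower. Among those that fell were *Cux2* and *Rorb*, genes of upper and middle cortical layers, with log2 fold changes of -1.74 ± 0.08 SE and -1.74 ± 0.10 SE. *Emx1*, the gene into which Cre was inserted in the cKO mice, also fell (log2 fold change -1.79 ± 0.11 SE). Oligodendrocyte precursor markers summed to 391 to 474 CPM in controls and 505 to 559 CPM in cKO, and 4 of 9 passed, all higher. Oligodendrocyte markers overlapped, at 3430 to 5629 and 5541 to 7145 CPM, with 2 of 12 passing and a median log2 fold change of 0.51. Astrocyte markers summed to 6312 to 6627 CPM in controls and 5682 to 6060 CPM in cKO, and 3 of 12 passed, 2 higher (*Gfap* and *Aqp4*) and 1 lower. The fall of this sum was close to that of *Slc1a2* alone, which did not pass (log2 fold change -0.25 ± 0.07 SE). *Slc1a2* had means of 3409 CPM in controls and 2866 CPM in cKO, against 6450 and 5900 CPM for the sum. The other members moved both ways, and the median log2 fold change of the list was -0.05. Thalamic markers summed to 139 to 176 CPM in controls and 106 to 115 CPM in cKO, and 3 of 8 passed, 1 higher and 2 lower. Most of that fall came from *Rora*, with means of 71.8 CPM in controls and 31.6 CPM in cKO, against 152 and 110 CPM for the sum. *Lef1*, *Slc17a6* and *Tnnt1* also had negative log2 fold changes. Those of *Plekhg1*, *Prkcd*, *Tcf7l2* and *Zic1* were positive, and the median of the list was 0.005. The part of any of these cell types in the collagen values was not tested.

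**Figure D3:**
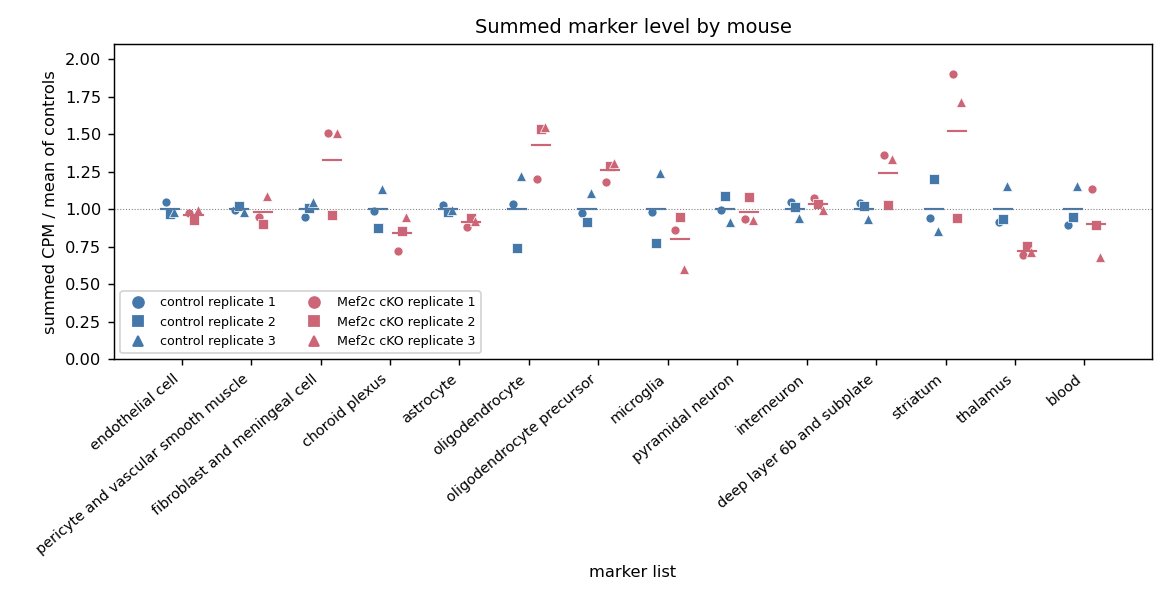
Summed CPM of each fixed marker list (x axis) in each of the 6 mice, divided by the mean of the controls (y axis). Shapes give replicates and short lines are genotype means; in the fibroblast and meningeal list *Mef2c* cKO replicates 1 and 3 are at 221 and 222 CPM, and cKO replicate 2 is at 141 CPM, among the controls.

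Of the 6 basement membrane genes, *Col4a2* rose and no other passed. *Col4a1* and *Col4a2* code for the chains of the type IV collagen found in nearly all basement membranes, vessels included. *Col4a2* (chr8:11312805-11449287, plus strand) was at 45.3, 52.7 and 49.6 CPM in controls and at 59.9, 57.9 and 63.8 CPM in cKO, with no overlap. Its log2 fold change of 0.3005 ± 0.07 SE (limma adjusted p = 0.0229) lay just inside the cut-off. *Col4a1* (chr8:11198423-11312826, minus strand) was at 37.2, 39.4 and 35.3 CPM in controls and at 42.7, 44.9 and 49.0 CPM in cKO, also with no overlap. Its log2 fold change of 0.29 ± 0.08 SE (limma adjusted p = 0.0307) lay just outside.

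This pair sat on either side of the cut-off with nearly equal fold changes, 1.23-fold for *Col4a2* and 1.22-fold for *Col4a1* on the means. Which of them passed changed with the samples: *Col4a2* passed in 5 of the 14 alternative settings run on recovered reads, and *Col4a1* passed without control replicate 2 (log2 fold change 0.33) and without cKO replicate 1 (0.33). Without control replicate 1 or 3, or cKO replicate 1 or 3, *Col4a2* had log2 fold changes of 0.24 to 0.31 and limma adjusted p of 0.0552 to 0.0781.

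The type IV genes lie in 3 head-to-head pairs, and the sequence between or across the annotated starts is shown for the pairs with the closest starts. The starts of *Col4a1* and *Col4a2* overlap by 22 bases (chr8:11312805-11312826), which hold 1 GGGCGG in capitals. The starts of *Col4a4* and *Col4a3* are 71 bases apart (chr1:82583425-82583495), and that stretch holds none of the letters searched. Both are printed on the plus strand.
Col4a1 and Col4a2: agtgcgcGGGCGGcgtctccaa
Col4a4 and Col4a3: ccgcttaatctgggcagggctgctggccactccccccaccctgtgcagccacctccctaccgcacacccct
*Col4a3* and *Col4a4*, chains of the kidney glomerular basement membrane, were at 0.520 to 0.757 and 1.19 to 1.96 CPM over the 6 mice. Neither passed (log2 fold change -0.09 ± 0.22 SE and -0.22 ± 0.20 SE). The starts of the third pair, *Col4a6* and *Col4a5* on the X chromosome, are 1308 bases apart, and their log2 fold changes were 0.17 ± 0.22 SE and 0.04 ± 0.20 SE. Genes of a pair thus had log2 fold changes that differed by no more than their standard errors in each of the 3 pairs.

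Of the other network genes, *Col8a1* fell. It codes for a chain of a short network collagen of vessel walls and the cornea, and lies at chr16:57624371-57754850 on the minus strand. It was at 3.12, 3.14 and 2.97 CPM in controls and at 1.44, 0.518 and 1.46 CPM in cKO. The value of cKO replicate 2 rests on 10 reads, and the genotypes did not overlap (log2 fold change -1.48 ± 0.33 SE, limma adjusted p = 0.0141). Without control replicate 2 the adjusted p from limma was 0.0502 at a log2 fold change of -1.46. *Col8a2*, the partner chain, was at 0.736, 0.729 and 1.65 CPM in controls and at 2.08, 0.777 and 2.42 CPM in cKO. Its genotypes overlapped (log2 fold change 0.66 ± 0.43 SE, limma adjusted p = 0.355). *Col10a1*, the collagen of hypertrophic cartilage, had 0 to 6 reads per mouse and was not tested.

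Among the 9 FACIT genes, 3 rose and 1 fell. *Col22a1* (chr15:71626225-71864657, minus strand), a collagen of tissue junctions such as that of muscle and tendon, was at 1.65, 2.69 and 2.21 CPM in controls and at 6.45, 5.33 and 6.54 CPM in cKO. The cKO mice were far above the controls (log2 fold change 1.46 ± 0.19 SE, limma adjusted p = 0.000697). *Col12a1* (chr9:79446798-79566638, minus strand), which lies on type I fibrils in tissue under load, was at 8.88, 7.94 and 9.88 CPM in controls and at 24.1, 14.9 and 13.1 CPM in cKO. Replicate 1 of the cKO, the 14-week-old mouse, stood above the other cKO mice (log2 fold change 0.91 ± 0.20 SE, limma adjusted p = 0.0143), and without control replicate 2 the limma adjusted p was 0.056 at a log2 fold change of 0.83.

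*Col20a1* (chr2:180721240-180752245, plus strand) was at 10.9, 13.2 and 12.0 CPM in controls and at 16.9, 17.1 and 15.0 CPM in cKO. The rise was small against its neighbours (log2 fold change 0.45 ± 0.10 SE, limma adjusted p = 0.0171). The call was lost without control replicate 1 or 3 or without cKO replicate 1 or 2, with log2 fold changes of 0.38 to 0.45 and limma adjusted p of 0.0502 to 0.0587.

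*Col19a1* (chr1:24268729-24594311, minus strand) was the FACIT gene that fell, and the collagen with the highest mean CPM in controls. Collagen XIX is made by neurons and is known for a part in the formation of inhibitory synapses. Controls were at 60.9, 60.8 and 62.6 CPM and cKO mice at 37.5, 43.8 and 37.2 CPM, so that the genotypes were far apart relative to their spread (log2 fold change -0.64 ± 0.08 SE, limma adjusted p = 0.000443). Per kilobase it ranked 2 of the 43 collagens in controls (8.92) and 4 in cKO (5.73). Its neighbour *Col9a1*, 9151 bases away and tail to tail with it, was at 0.853, 0.851 and 1.03 CPM in controls and at 1.68, 1.04 and 1.68 CPM in cKO. The genotypes of *Col9a1* were apart by a narrow margin and the test was not passed (log2 fold change 0.61 ± 0.23 SE, limma adjusted p = 0.113). Without cKO replicate 2 it passed (log2 fold change 0.82, limma adjusted p = 0.0274).

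*Col16a1*, also a FACIT gene, did not pass, with 20.5, 26.8 and 17.8 CPM in controls and 24.3, 19.8 and 25.1 CPM in cKO (limma adjusted p = 0.712). The other FACIT genes that did not pass were *Col9a2*, *Col9a3* and *Col14a1*. *Col9a2*, a chain of the type IX collagen of cartilage, was lower in every cKO mouse (2.49 to 4.03 CPM) than in every control (4.54 to 4.88 CPM), at a limma adjusted p of 0.167.

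Among the genes of beaded filaments and anchoring fibrils, 1 of the 5 tested rose. *Col6a5* (chr9:105758400-105862974, minus strand), a long chain of the microfibrillar type VI collagen, was at 7.65, 5.23 and 6.78 CPM in controls and at 17.5, 24.8 and 16.8 CPM in cKO. The genotypes were well apart and cKO replicate 2 was the highest mouse (log2 fold change 1.57 ± 0.18 SE, limma adjusted p = 0.000358). *Col6a6* and *Col6a4* flank *Col6a5* on the same strand, 27984 and 28810 bases away. *Col6a6* was at 27.1, 11.4 and 23.0 CPM in controls and at 13.9, 27.2 and 4.62 CPM in cKO, the widest spread within a genotype among the tested collagens by its standard error (0.55), and did not pass. *Col6a4* had 11 to 25 reads per mouse, below the level needed for testing.

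*Col6a1*, the collagen with the highest level per kilobase in both genotypes (13.5 in controls, 12.0 in cKO), did not pass. It was at 51.7, 67.4 and 59.2 CPM in controls and at 51.4, 36.6 and 69.9 CPM in cKO, so that the cKO mice held both the lowest and the highest value (log2 fold change -0.22 ± 0.20 SE, limma adjusted p = 0.53). *Col6a2*, its partner chain, was at 19.3, 21.3 and 16.8 CPM in controls and at 19.0, 13.3 and 21.6 CPM in cKO (limma adjusted p = 0.705). *Col7a1*, the anchoring fibril collagen of skin, was at 2.001 to 3.55 CPM in controls and 3.58 to 4.56 CPM in cKO, and did not pass (limma adjusted p = 0.258).

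None of the 3 transmembrane collagens tested passed. *Col25a1*, a neuronal collagen whose shed part is found in amyloid plaques, was at 13.9, 16.7 and 15.7 CPM in controls and at 17.7, 15.7 and 21.5 CPM in cKO. *Col23a1* was at 8.83, 12.2 and 9.76 CPM in controls and at 9.05, 6.21 and 9.41 CPM in cKO. The genotypes overlapped in both genes (limma adjusted p = 0.25 and 0.273). *Col17a1*, the collagen of hemidesmosomes in skin, had 2 to 19 reads per mouse and was not tested. Over all classes, the 25 collagens that were tested and did not pass had limma adjusted p-values between 0.0307 and 0.997, 15 with a positive and 10 with a negative log2 fold change. Their median standard error of 0.19 on the log2 scale was above the 0.09 over all genes tested.

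Summed over all 43 genes, collagen reads were at 493, 559 and 531 CPM in controls and at 523, 469 and 545 CPM in cKO. The genotypes overlapped and the total showed no difference beyond the spread between mice (528 ± 33.1 against 512 ± 39.1 CPM, SD, n = 3 each, exact two-sided permutation p = 0.6). With 3 mice against 3 this test cannot go below 0.1. The sum of the basement membrane genes reached that limit from above, at 88.9 to 99.002 CPM in controls and 108 to 120 CPM in cKO (exact permutation p = 0.1), and *Col4a2* held 53.2% of it. The sum of the multiplexin and other class reached it from below, at 36.7 to 49.1 CPM in controls and 13.8 to 15.6 CPM in cKO (exact permutation p = 0.1), and *Col26a1* held 60.1% of it. Taken as the wider groups, the 9 network genes summed to 97.5 ± 5.15 CPM in controls and 116 ± 7.51 CPM in cKO, and the 23 other collagens to 304 ± 15.2 and 275 ± 10.5 CPM (SD, n = 3, exact permutation p = 0.1 for each). Neither group overlapped between genotypes, and their log2 ratios of means were 0.25 and -0.15.

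In the fibrillar class, where genes moved both ways, the sums overlapped, with 126 ± 12.9 CPM in controls and 122 ± 22.1 CPM in cKO (SD, n = 3, exact permutation p = 0.8). FACIT sums were 124 ± 5.15 and 122 ± 6.72 CPM (SD, n = 3, exact permutation p = 0.9). The beaded filament and anchoring class was at 109 ± 0.88 and 110 ± 6.18 CPM (SD, n = 3, exact permutation p = 1), and the transmembrane class at 27.4 ± 3.17 and 28.3 ± 4.52 CPM (SD, n = 3, exact permutation p = 0.8). The sum of the other network class, led by *Col8a1*, was 4.16 ± 0.42 in controls and 2.93 ± 1.43 CPM in cKO (SD, n = 3, exact permutation p = 0.2).

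**Figure D4:**
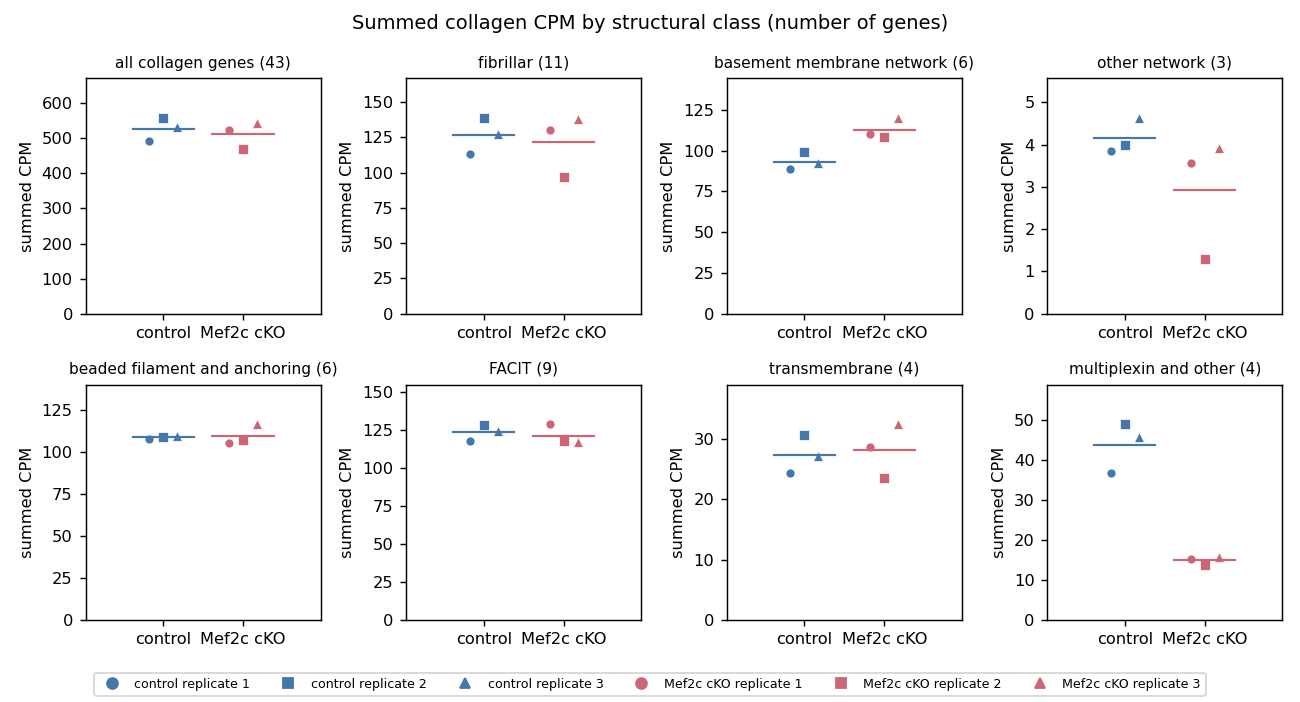
Summed CPM (y axes, starting at 0) of all collagen genes and of each of the 7 structural classes in each mouse, with the number of genes in parentheses. Points are mice and lines are genotype means; only the basement membrane sums (higher in cKO) and the multiplexin and other sums (lower in cKO) do not overlap between genotypes.

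Genes that build, process and bind collagen were counted on 5 lists, of which 61 genes were tested and 11 passed (18.0%, against 13.7% of all genes), 9 higher and 2 lower in cKO. Their median log2 fold change was 0.20, against 0.01 over all genes tested. Collagen chains are hydroxylated on proline and lysine before they fold, and 4 of the 15 hydroxylases and glycosyltransferases tested rose while none fell. *P4ha1*, a catalytic subunit of prolyl 4-hydroxylase, was at 58.3, 54.1 and 49.8 CPM in controls and at 76.0, 69.0 and 71.7 CPM in cKO (log2 fold change 0.42 ± 0.07 SE, limma adjusted p = 0.00416). *Plod1* and *Plod2*, which code for lysyl hydroxylases, had log2 fold changes of 0.36 ± 0.08 SE and 0.47 ± 0.13 SE, and *P3h3*, a prolyl 3-hydroxylase gene, had 0.38 ± 0.10 SE (limma adjusted p = 0.018, 0.043 and 0.0367).

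On the list of folding and secretion genes, *Sparc* was the 1 of 10 tested that passed. It codes for a collagen-binding matrix protein and was at 113, 113 and 117 CPM in controls and at 220, 178 and 207 CPM in cKO (log2 fold change 0.81 ± 0.08 SE, limma adjusted p = 0.000141). Of 12 processing and cross-linking genes tested, 2 rose and 1 fell. *Adamts3*, which codes for a protease that removes procollagen N-propeptides, was at 29.2, 32.8 and 31.2 CPM in controls and at 59.7, 66.5 and 64.1 CPM in cKO (log2 fold change 1.03 ± 0.07 SE, limma adjusted p = 1.97e-05). *Bmp1*, the main procollagen C-proteinase, went the other way, at 78.6, 108 and 91.4 CPM against 53.2, 57.0 and 55.2 CPM (log2 fold change -0.74 ± 0.10 SE, limma adjusted p = 0.0012). *Tll2*, a relative of *Bmp1*, rose from a low level (log2 fold change 0.97 ± 0.19 SE, limma adjusted p = 0.0067).

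Of 8 collagen receptor genes tested, 1 rose and 1 fell. *Itga11*, the alpha chain of an integrin that binds fibrillar collagen, was at 1.53, 1.82 and 1.61 CPM in controls and at 9.29, 6.01 and 8.98 CPM in cKO (log2 fold change 2.20 ± 0.18 SE, limma adjusted p = 6.09e-05). *Lair1*, which codes for an inhibitory collagen receptor of immune cells, was at 9.47, 9.93 and 10.7 CPM in controls and at 8.07, 6.94 and 7.51 CPM in cKO (log2 fold change -0.42 ± 0.11 SE, limma adjusted p = 0.0272). Among 16 collagen-binding matrix genes tested, only *Dcn* passed (log2 fold change 1.97 ± 0.40 SE, limma adjusted p = 0.00923), and it is also on the fibroblast marker list.

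The RPKM values as deposited gave no collagen calls. For *Col4a2* they were 14.2, 0.818 and 2.66 RPKM in controls and 0.641, 4.27 and 0.640 RPKM in cKO, although its recovered CPM lay between 45.3 and 63.8 in all mice. Each table divides by its own set of lengths, so that 1 gene has a different length in different mice. Over the 40 tested collagens the median SD within a genotype, on the log2 scale with 0.1 added, was 1.25 in controls and 1.36 in cKO for deposited RPKM, against 0.18 and 0.27 for recovered CPM. The same test on deposited RPKM called 0 of the 7 collagens it could test and 14 of 7974 genes.

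**Figure D5:**
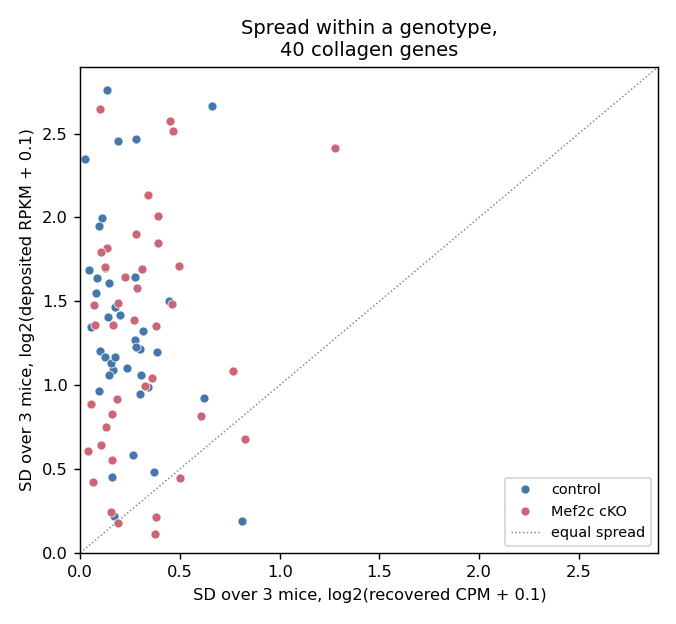
SD over the 3 mice of a genotype of log2(value + 0.1), for recovered CPM (x axis) and deposited RPKM (y axis), for the 40 tested collagen genes. Each gene has 1 point per genotype, the dotted line marks equal spread, and most points lie far above it, with medians of 1.25 against 0.18 in controls.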

How the data were processed

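PolyA-selected, directional RNA-Seq libraries of somatosensory cortex were compared (3 control and 3 *Mef2c* cKO mice). The authors aligned reads to mm9 with TopHat and Bowtie, counted them per gene with HTSeq on a UCSC annotation, and deposited RPKM values, 1 table per mouse; versions are not given in the sources used here. In each table the lengths in the RPKM formula were found, after the data were seen, to repeat in a cycle along genes sorted by Entrez ID. From that cycle whole counts were recovered for 99.93% to 99.99% of values above 0, and for all 43 collagens in every mouse. The counts came to 99.988% to 99.990% of each total. Reads on 92 rows without a gene name (0.0574% to 0.0853%) were left out of library sizes.

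CPM from the recovered counts were tested as log2(CPM + 0.1) with limma 3.58.1 (trended variance, R 4.3.3). The recovered counts themselves were also fitted with voom, the limma method for counts, as 1 of the alternatives, and 15 collagens passed there. Genes needed over 0.5 CPM in every mouse of a genotype. Sums were compared by exact permutation (scipy 1.17.1). The recovery and the fit were tested on simulated data. Values are printed by mouse for collagens that passed, the 2 with the highest mean CPM in each class and the 3 with the smallest adjusted p among the rest; *Col13a1*, *Col1a1*, *Col1a2* and others outside the rule were chosen after their values were seen. Members and lists were chosen with earlier results of these data known. Exon lengths and coordinates are from GENCODE vM1 (NCBIM37), not the UCSC annotation, so CPM per kilobase is approximate. The limma p-values weigh the difference between genotypes against the spread within them. The permutation p-values compare that difference with other splits of these 6 libraries.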

Additional observations from a re-analysis of the deposited data

How the results depend on the processing

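Of the 15 collagens that passed, 10 also passed in all 14 alternatives on recovered reads (*Col5a2*, *Col6a5*, *Col11a1*, *Col11a2*, *Col15a1*, *Col19a1*, *Col22a1*, *Col24a1*, *Col26a1* and *Col28a1*). *Col4a2*, *Col5a3*, *Col8a1*, *Col12a1* and *Col20a1* kept their direction and lost the call in at least 1 of them. Leaving out 1 mouse gave 12 to 17 collagens, 1654 to 1870 genes in all and 9 to 14 genes of the 5 collagen pathway lists. With a cut-off of 1 on the log2 fold change, 9 collagens, 474 genes and 3 list genes passed. On deposited RPKM, 0 collagens, 14 genes and 0 list genes passed; there *Col4a2* (log2 fold change -1.31) and *Col11a2* (-1.36) reversed and missed the threshold. When 1 mouse was left out, *Col6a1* (-0.45 to 0.020) and *Col6a2* (-0.26 to 0.084), neither of which passed, reversed without *Mef2c* cKO replicate 2, and *Col16a1* (-0.030 to 0.26), which did not pass either, without control replicate 3.

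The log2 ratio of summed CPM, cKO over control, had 1 sign in every alternative for the basement membrane class (0.23 to 0.32 when 1 mouse was left out), the other network class (-0.77 to -0.15) and the multiplexin and other class (-1.67 to -1.47). For all 43 genes leaving out 1 mouse gave -0.090 to 0.016, for fibrillar genes -0.16 to 0.086, for beaded filament and anchoring genes -0.036 to 0.039, for FACIT genes -0.070 to 0.0044 and for transmembrane genes -0.072 to 0.16, so these sums had no stable sign. With the mean of log2 levels in place of the sum, the fibrillar (0.053), FACIT (0.33), transmembrane (-0.12) and whole network (-0.046) differences reversed; the mean weights each gene equally.

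Same-numbered mice were of the same age in both genotypes. Their deviations from the genotype means correlated at -0.18, -0.11 and -0.08 over 14638 genes. These values show no pairing in expression, and they cannot show whether same-numbered mice were littermates. With the replicate block 13 collagens, 1697 genes and 9 list genes passed. The 3 collagens that were not tested had 0 to 25 reads per mouse, and for a given CPM the fewest reads were in cKO replicate 2, the shallowest library.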
